A study of Mus musculus with 10 samples.

Results

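The unfolded protein response and the folding machinery of the endoplasmic reticulum (ER) were followed through 33 genes in mouse mammary glands that had received lipopolysaccharide (LPS), the endotoxin of Gram-negative bacteria. The genes were taken by symbol from a list of sensors, transcription factors, chaperones and degradation factors, and all 33 were found among the 35275 genes of the deposited expression table. LPS glands came from BALB/c mice, an inbred strain, on day 3 of lactation, and had received 50 µL of LPS from E. coli 055:B5 at 0.4 mg/mL through the teat opening. PBS glands, the controls, came from BALB/c mice on the same day of lactation and had received 50 µL of sterile phosphate-buffered saline by the same route. Left and right glands of the 4th pair were given the 2 solutions in alternation, and the glands were collected after 12 h. RNA of whole glands was sequenced in 5 LPS and 5 PBS libraries. The labels give n = 9, do not say which mice the 10 libraries came from, and name no uninjected gland, so that the p-values reflect variation among these libraries, which may be technical in part, and a PBS gland is not an untouched one. Values are FPKM, fragments scaled by gene length and by library depth, which allows levels of different genes to be set beside each other.

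The ER folds and glycosylates secreted proteins, and its capacity is set by 3 membrane sensors. PERK (gene Eif2ak3) phosphorylates the initiation factor eIF2 alpha, which lowers general translation and favours translation of ATF4; IRE1 alpha (gene Ern1) splices the mRNA of XBP1; and ATF6 is cut in the Golgi to release a transcription factor. The lactating mammary epithelium exports large amounts of milk protein and is rich in ER. The deposited values are totals per gene, so that neither the splicing of Xbp1 mRNA nor the phosphorylation or cleavage of the sensors was measured. Genes are described below by the arm with which they are most often associated, although several, such as Herpud1, Dnajc3 and Ddit3, answer to more than 1 arm. The PERK arm held 7 genes, the IRE1 arm, with ER-associated degradation (ERAD), 11, and the ATF6 arm, with chaperones and folding enzymes, 15.

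The promoters of these genes are shown because ATF6, XBP1 and ATF4 are known to act through short sequence elements. The ER stress response element (ERSE), CCAAT and CCACG with 9 bases between them on either strand, was found in 9 of the 29 genes that had an entry in RefSeq's promoter table (build GRCm38.p6, 250 bases before to 50 after the annotated start), against 0.119% of all 32851 promoters in it. The 9 genes were Hspa5, Hsp90b1, Calr, Canx, Pdia6, Creld2, Dnajc3, Syvn1 and Derl3. A shorter element, ERSE-II (ATTGG and CCACG with 1 base between them), was found in Herpud1 and Dnajb11 and in 0.0365% of all promoters. The ATF4 element CARE (TGATGNAA) was found in Asns, Chac1, Trib3 and Herpud1 and in 3.97% of all promoters, and the XBP1 core TGACGTGG in 0 of the 29 genes and in 0.676% of all. The matches cut across the arms, with the ERSE in Dnajc3, Syvn1 and Derl3 of the IRE1 arm and CARE in Herpud1 of the ATF6 arm. None of the motifs overlapped another in the sequences printed here. Atf6, Derl1, Hyou1 and Manf had no entry. The sequences below are those of the reference genome on the strand of the gene, with the element in capitals, and a match is a run of letters and not a measured binding site. Hspa5 is given from 250 bases to 1 base before its annotated start (chr2:34771840-34772089, plus strand), and the others with up to 20 bases on each side of the element, which reads in reverse complement where it starts with CGTGG or TTGCA.
Hspa5: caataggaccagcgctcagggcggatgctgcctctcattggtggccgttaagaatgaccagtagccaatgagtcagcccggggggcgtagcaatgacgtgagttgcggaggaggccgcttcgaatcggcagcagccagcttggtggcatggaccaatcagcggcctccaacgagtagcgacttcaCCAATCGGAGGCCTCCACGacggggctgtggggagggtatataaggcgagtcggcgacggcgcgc
Hsp90b1 (chr10:86705513-86705571, minus strand): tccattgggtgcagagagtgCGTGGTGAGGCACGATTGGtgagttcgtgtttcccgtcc
Calr (chr8:84847055-84847113, minus strand): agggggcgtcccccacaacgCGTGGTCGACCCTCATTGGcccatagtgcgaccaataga
Pdia6 (chr12:17266471-17266529, plus strand): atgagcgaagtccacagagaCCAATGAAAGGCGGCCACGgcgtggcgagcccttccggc
Dnajc3 (chr14:118937807-118937865, plus strand): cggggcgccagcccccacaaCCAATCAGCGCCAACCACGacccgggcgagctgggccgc
Syvn1 (chr19:6046512-6046570, plus strand): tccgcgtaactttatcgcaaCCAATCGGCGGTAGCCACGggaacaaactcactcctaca
Derl3 (chr10:75893222-75893280, plus strand): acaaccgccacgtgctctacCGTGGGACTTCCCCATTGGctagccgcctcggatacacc
Herpud1 (chr8:94386357-94386407, plus strand, ERSE-II): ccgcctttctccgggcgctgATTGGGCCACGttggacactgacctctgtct
Asns (chr6:7693210-7693252, minus strand, CARE): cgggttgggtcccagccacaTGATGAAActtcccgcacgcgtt
Chac1 (chr2:119351029-119351076, plus strand, CARE): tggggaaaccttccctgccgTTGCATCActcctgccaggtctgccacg

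The libraries held 15734303 to 18869545 counted reads, and the 33 genes between 65 reads (Derl3) and 20776 reads (Hspa5) in a library. Transcripts of 8 milk proteins took 32.2 to 44.3% of summed FPKM in LPS libraries and 38.6 to 49.9% in PBS libraries and were thus present in every library, as the labelled tissue requires. PBS replicates 2 and 4 and LPS replicate 3 stood apart by B and T cell transcripts, with a mean marker level of 2.79, 1.90 and 1.58 on the log2(FPKM + 1) scale against 0.0837 to 0.688 in the other 7 libraries. Results below were also computed without these 3 libraries.

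LPS glands were compared with PBS glands to ask whether transcripts of the 3 arms differed 12 h after endotoxin. None of the 33 genes passed the test in either direction: 0 were higher and 0 lower in LPS glands by limma, a linear model across all genes on log2(FPKM + 1), at a Benjamini-Hochberg adjusted p below 0.05. Over all 11414 genes tested 2.63% were called higher and 0.605% lower, or 3.23% in either direction, so that 0 of 33 is near the share of the background. At an unadjusted p below 0.05 were 3 of the 33 genes, Eif2ak3, Derl3 and Asns, against 16.5% of all genes. Of the 33 genes 1, Eif2ak3, had groups that did not overlap, against 4.75% of all genes tested (1.22% with LPS glands lower). On whole reads recovered from FPKM, edgeR called 0 of the 33 (3.37% of all genes it tested) and DESeq2 called 1, Eif2ak3 (6.4% of all). Without the 3 libraries rich in B and T cell transcripts limma called 0 of the 33 in either direction. Over all genes that fit called only 28 higher and 7 lower, in place of 300 and 69, so its 0 says little. With the replicate number as a block limma called 2 of the 33 lower, Asns and Derl3, and 0 higher, against 10.8% of all genes called. The labels do not say that equal numbers are the 2 glands of a mouse, so the fit without the block was kept as the main one. In whole glands, fewer cells of a type and less RNA per cell cannot be told apart.

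The median log2 change of the 33 genes, LPS minus PBS, was -0.05, against 0.05 over all genes tested. The median was -0.00 in the PERK arm, -0.07 in the IRE1 arm and -0.05 in the ATF6 arm. After scaling each library to its non-milk transcripts, the FPKM left when 8 milk protein genes are taken out, the median was -0.26 for the 33 genes and -0.13 for all genes. The 95% interval of the log2 change lay within 2-fold in either direction for 32 of the 33 genes, the exception being Derl3, and within 1.5-fold for 24 of them. These intervals bound the changes of single genes on the log2(FPKM + 1) scale and do not show that the levels were equal.

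**Figure D1:**
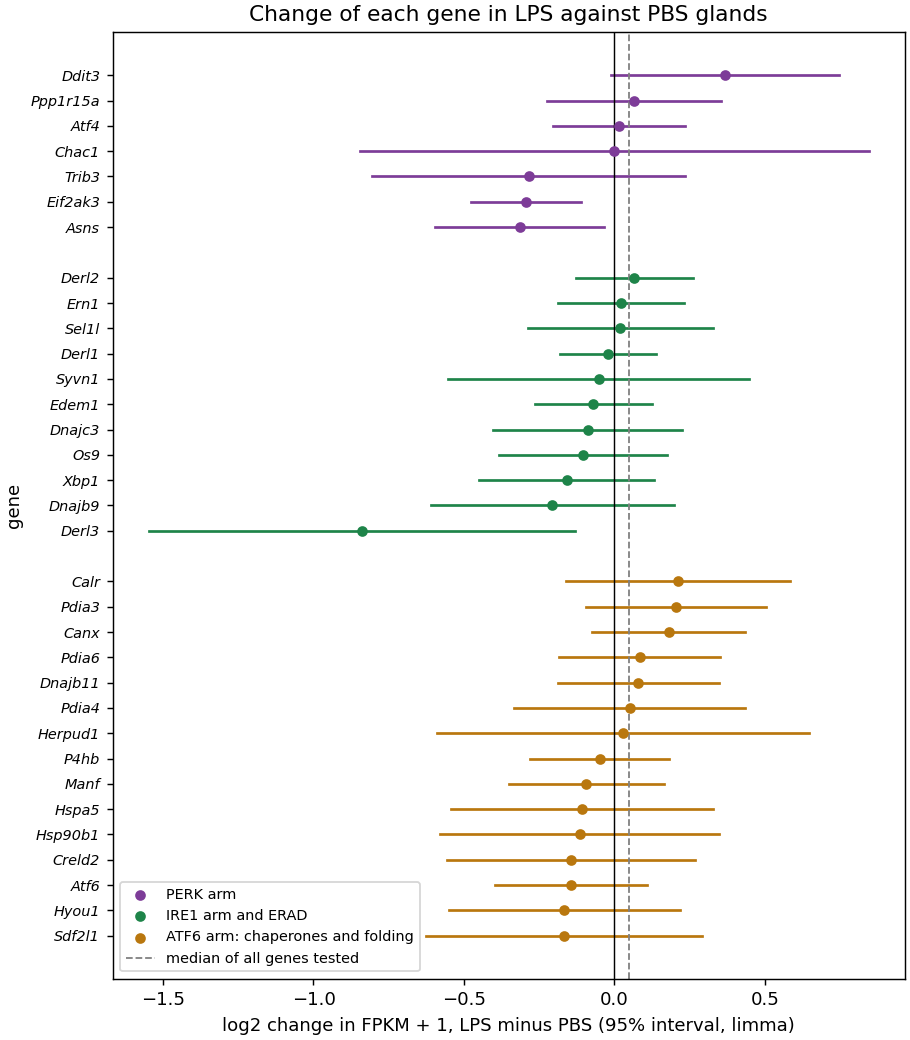
Log2 change in FPKM + 1 of each of the 33 genes, LPS minus PBS (points), with its 95% interval from limma (bars), grouped by arm. The dashed line is the median of all genes tested, 0.05. The intervals of Eif2ak3, Asns and Derl3 lie below 0, those of the other 30 genes cross it, and no gene passed the adjusted test.

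By level, 3 genes of the module were among the 107 most abundant of all genes tested: Xbp1 ranked 84, Calr 92 and Hspa5 107. The sensors were far lower: Eif2ak3 ranked 5080, Atf6 5916 and Ern1 7245. In the PERK arm Atf4 was highest, and in the ATF6 arm the calcium-binding lectin chaperone Calr and the HSP70-type chaperone Hspa5 (BiP) were followed by the disulfide isomerases P4hb and Pdia3.

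**Figure D2:**
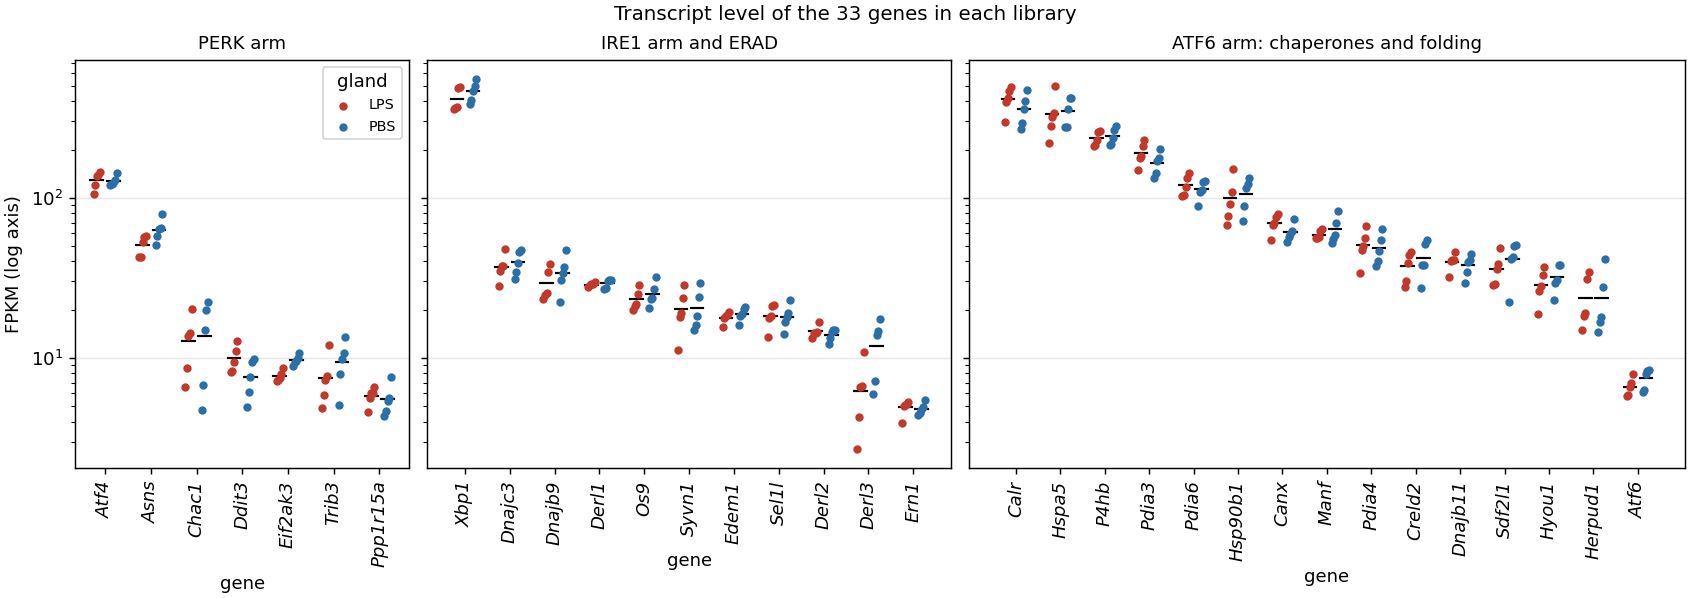
FPKM of the 33 genes in each library on a log axis, LPS glands in red and PBS glands in blue, with the group mean as a black line. The panels hold the PERK, IRE1 and ATF6 arms. Levels run from 2.68 FPKM (Derl3 in LPS replicate 2) to 555 FPKM (Xbp1 in PBS replicate 4), and the 2 groups overlap for every gene but Eif2ak3.

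In the PERK arm the sensor itself had the lowest unadjusted p of all 33 genes. Eif2ak3 (ENSMUSG00000031668, chromosome 6, 70844515 to 70905245, plus strand of build mm10) was at 7.17, 8.67, 7.49, 7.94 and 7.32 FPKM in LPS replicates 1 to 5, against 9.44, 8.86, 9.92, 9.56 and 10.7 FPKM in PBS replicates 1 to 5. Every LPS gland lay below every PBS gland, although LPS replicate 2 and PBS replicate 2 were close. The means were 7.72 ± 0.606 FPKM in LPS glands and 9.69 ± 0.673 FPKM in PBS glands (SD, n = 5 each). The log2 change was -0.29 ± 0.08 (SE; 95% interval -0.48 to -0.11; unadjusted p = 0.00418 and limma adjusted p = 0.083), which did not pass. The adjusted p lay between 0.0696 and 0.176 when single libraries were left out. The gene passed in DESeq2 on recovered reads (log2 change -0.40, adjusted p = 0.0252), with FPKM rescaled outside milk proteins (-0.49, adjusted p = 0.023, with 4.17% of all genes called) and with a covariate for B and T cell markers (-0.31, adjusted p = 0.0469, with 6.46% of all genes called). The authors' deposited table lists Eif2ak3 and no other of the 33 genes, with a log2 change of -0.37 and an adjusted p of 0.0249. It lists 2.57% of the 35275 genes in the expression table, but 12216 of these were at 0 throughout. DESeq2 on recovered reads called 6.4% of the genes it tested. Recovered reads equalled the authors' counts in all 908 listed genes, and the submitters' notes also name DESeq2. The 2 results are therefore not independent.

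The transcription factors of the PERK arm did not pass. Atf4, the bZIP factor translated when eIF2 alpha is phosphorylated, was at 120.1, 146, 136, 106 and 139 FPKM in LPS replicates 1 to 5, against 129, 143, 121, 123 and 122 FPKM in PBS replicates 1 to 5. The groups overlapped throughout their range, with a log2 change of 0.02 ± 0.10 (95% interval -0.20 to 0.23; limma adjusted p = 0.967); under the 3 other scalings it was between -0.05 and -0.20. Ddit3, which encodes the pro-apoptotic factor CHOP, was at 8.31, 11.04, 12.8, 9.44 and 8.16 FPKM in LPS replicates 1 to 5, against 4.91, 9.85, 7.63, 9.44 and 6.13 FPKM in PBS replicates 1 to 5. LPS replicates 2 and 3 lay above every PBS gland, and PBS replicates 1, 3 and 5 lay below every LPS gland. Its log2 change of 0.37 ± 0.17 did not pass (limma adjusted p = 0.319), and with the B and T cell covariate it was 0.51 (adjusted p = 0.0239). Ddit3 overlaps exons of Mars on the opposite strand, and without a stated strand of counting reads in the shared stretch cannot be told apart. Among other members, Syvn1, Derl2, Pdia6 and Manf also overlap exons of expressed genes on the opposite strand (Mrpl49, Mis12, Atp6v1c2 and Dcaf1). Manf overlaps Rbm15b on its own strand as well.

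Among the targets of ATF4, Asns, the asparagine synthetase (ENSMUSG00000029752, chromosome 6, 7675169 to 7693254, minus strand), was at 53.1, 42.6, 42.7, 57.5 and 56.9 FPKM in LPS replicates 1 to 5, against 63.8, 50.5, 58.0, 65.2 and 78.7 FPKM in PBS replicates 1 to 5. All LPS glands lay below PBS replicates 1, 3, 4 and 5, but 3 of them lay above PBS replicate 2. The log2 change was -0.31 ± 0.13 (95% interval -0.59 to -0.03; limma adjusted p = 0.235). With the replicate number as a block Asns passed as lower (limma adjusted p = 0.0247, with 10.8% of all genes called). Trib3, a pseudokinase that ATF4 and CHOP induce, was at 7.66, 5.82, 4.88, 7.24 and 12.0 FPKM in LPS replicates 1 to 5, against 10.8, 7.87, 5.08, 9.88 and 13.4 FPKM in PBS replicates 1 to 5. Its groups overlapped (log2 change -0.28 ± 0.24, limma adjusted p = 0.629). Chac1, a glutathione-degrading enzyme, had the largest residual SD of the module, at 6.57 to 20.3 FPKM in LPS glands and 4.71 to 22.4 FPKM in PBS glands, with a log2 change of -0.00 ± 0.39. Ppp1r15a, the phosphatase subunit GADD34 that reverses eIF2 alpha phosphorylation, was at 4.59 to 6.60 FPKM in LPS glands and 4.36 to 7.60 FPKM in PBS glands.

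Asns, Trib3 and Chac1 were also ordered alike within the groups, a grouping made after their values were seen. All 3 hold the CARE element, but Herpud1, the other gene that holds it, ran the other way, with its highest levels in LPS replicate 3 (34.5 FPKM) and PBS replicate 3 (41.4 FPKM). Those 2 libraries were the highest of their groups for 30.9 and 20.9% of all genes tested. Trib3 and Chac1 were highest in LPS replicate 5 and PBS replicate 5, and Asns was highest in PBS replicate 5. LPS replicate 5 and PBS replicate 5 were the highest for 7.74 and 8.24% of all genes tested. Asns, Trib3 and Chac1 were each low in LPS replicates 2 and 3 and in PBS replicates 2 and 3, at 42.6, 42.7, 50.5 and 58.0 FPKM for Asns. The part of CARE in this order was not tested. Over all genes tested, LPS replicates 2 and 3 were the lowest of their group for 8.55 and 8.71%, and PBS replicates 2 and 3 for 7.16 and 12.0%. Ppp1r15a, with a promoter entry and no CARE match, was also lowest there, at 5.57, 4.59, 4.68 and 4.36 FPKM, but was highest in LPS replicate 4 and PBS replicate 4. Atf4 did not follow the order of Asns, Trib3 and Chac1: it was highest in LPS replicate 2 and PBS replicate 2. These were also the highest libraries for 29.0 and 49.3% of all genes tested.

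**Figure D3:**
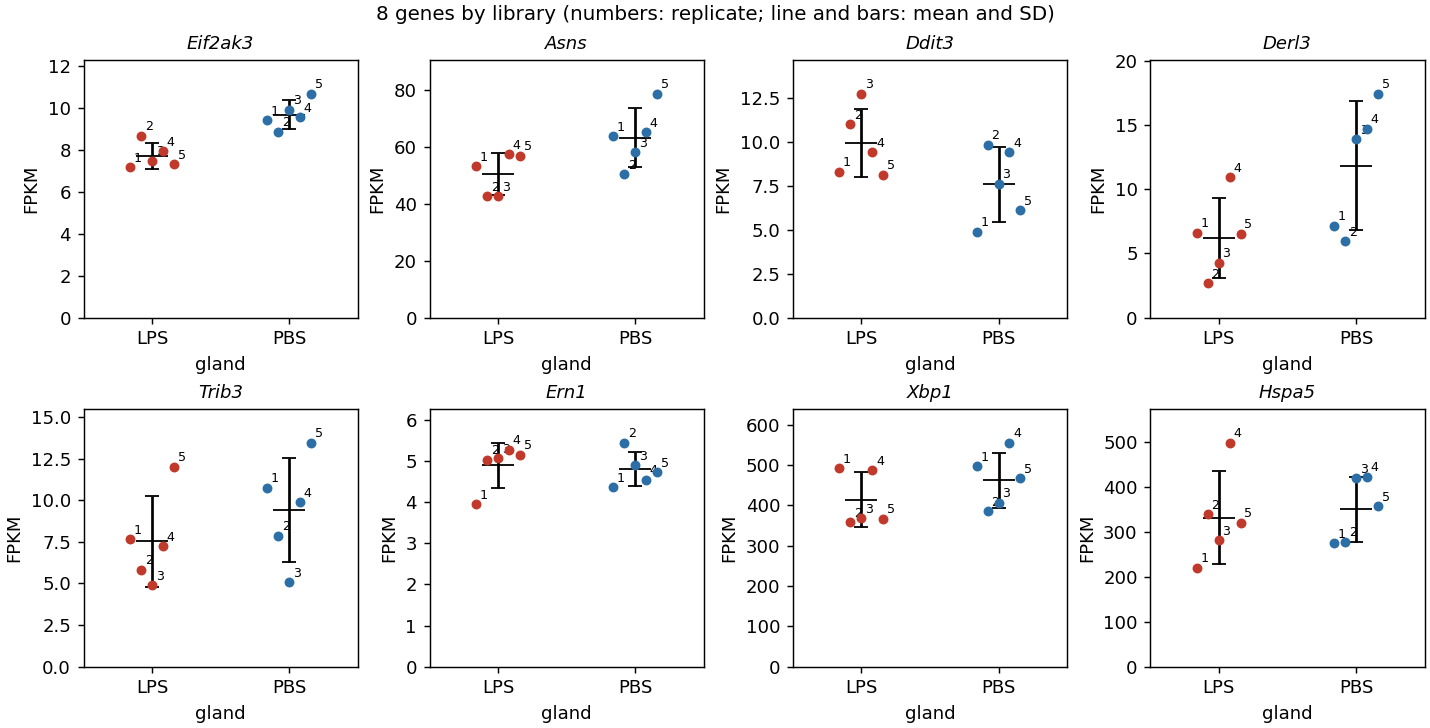
FPKM of 8 genes in every library (points numbered by replicate), LPS left of PBS, with the group mean and SD. Eif2ak3 is the only gene shown whose groups do not overlap, at 7.17 to 8.67 FPKM in LPS glands and 8.86 to 10.7 FPKM in PBS glands. Asns, Derl3, Trib3 and Xbp1 have lower means and Ddit3 a higher mean in LPS glands, with overlapping groups.

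In the IRE1 arm the sensor and its substrate mRNA did not pass. Ern1 was at 3.94, 5.03, 5.07, 5.28 and 5.16 FPKM in LPS replicates 1 to 5, against 4.36, 5.44, 4.90, 4.55 and 4.73 FPKM in PBS replicates 1 to 5. Apart from LPS replicate 1, which was the lowest of all, the groups lay in the same range (log2 change 0.02 ± 0.10, 95% interval -0.19 to 0.23, limma adjusted p = 0.951; between -0.03 and -0.16 under the 3 other scalings). Xbp1 (ENSMUSG00000020484, chromosome 11, 5520659 to 5525893, plus strand), the most abundant gene of the module, was at 493, 359, 369, 487 and 367 FPKM in LPS replicates 1 to 5, against 497, 385, 407, 555 and 467 FPKM in PBS replicates 1 to 5. LPS replicates 2, 3 and 5 lay below every PBS gland, and LPS replicates 1 and 4 lay among the higher PBS glands. The means were 415 ± 68.6 FPKM in LPS glands and 462 ± 68.8 FPKM in PBS glands, with a log2 change of -0.16 ± 0.13 (95% interval -0.45 to 0.13; limma adjusted p = 0.631).

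Derl3, a derlin of the ERAD channel that is known from secretory cells, had the log2 change of largest size among the 33 genes. Derl3 (ENSMUSG00000009092, chromosome 10, 75893413 to 75895941, plus strand) was at 6.62, 2.68, 4.28, 10.9 and 6.53 FPKM in LPS replicates 1 to 5, against 7.16, 5.94, 13.9, 14.7 and 17.4 FPKM in PBS replicates 1 to 5. PBS replicates 3, 4 and 5 lay above every LPS gland, and PBS replicates 1 and 2 lay within the LPS range. The log2 change was -0.84 ± 0.33 (95% interval -1.55 to -0.13; unadjusted p = 0.0238 and limma adjusted p = 0.209). With the replicate number as a block Derl3 passed as lower (limma adjusted p = 0.024, with 10.8% of all genes called). Plasma cells also express Derl3, and their markers gave 63.7 to 370.5 FPKM in LPS glands and 132 to 528 FPKM in PBS glands summed over 10 genes, of which 6 were tested. Of these 1, Sdc1, which epithelial cells also express, was called higher, and the other 5 had log2 changes between -2.14 (Ighm) and -0.21 (Igha), none of them called, for a list median of -0.63. Tnfrsf17 was at 0 in at least 1 library of each group. The part of plasma cells in the difference of Derl3 was not tested. The related derlins Derl1 and Derl2 had the narrow ranges of 27.5 to 29.7 and 13.4 to 16.8 FPKM in LPS glands, against 26.9 to 30.8 and 12.2 to 15.03 FPKM in PBS glands.

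The other genes of the IRE1 arm encode co-chaperones and the ERAD machinery. Dnajb9, the J-protein ERdj4, was at 23.2, 34.2, 38.3, 25.5 and 24.6 FPKM in LPS replicates 1 to 5, against 33.7, 30.4, 47.1, 36.9 and 22.4 FPKM in PBS replicates 1 to 5, with overlapping groups (log2 change -0.21 ± 0.19, limma adjusted p = 0.662). Syvn1, the ubiquitin ligase HRD1, ran from 11.1 to 28.6 FPKM in LPS glands and 14.98 to 29.3 FPKM in PBS glands. Its partner Sel1l ran from 13.4 to 21.4 FPKM in LPS glands and 14.04 to 22.8 FPKM in PBS glands. The lectin Os9, the mannosidase-like Edem1 and the co-chaperone Dnajc3 had log2 changes of -0.10, -0.07 and -0.09, each smaller than its SE.

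In the ATF6 arm 0 of 15 genes passed, and 0 had an unadjusted limma p below 0.05, against 16.5% of all genes tested. The median residual SD was 0.31 in this arm and 0.198 over all genes tested. Log2 changes of the arm ran from -0.17 (Sdf2l1) to 0.21 (Calr). Atf6 itself was at 5.78, 5.82, 6.57, 7.96 and 6.93 FPKM in LPS replicates 1 to 5, against 8.45, 6.32, 6.12, 8.33 and 7.92 FPKM in PBS replicates 1 to 5, a log2 change of -0.14 ± 0.12 (limma adjusted p = 0.608). Hspa5 (ENSMUSG00000026864, chromosome 2, 34771970 to 34777547, plus strand), the main ER chaperone and the usual readout of this response, was at 219.9, 339.6, 281, 498 and 321 FPKM in LPS replicates 1 to 5, against 275, 278, 419.9, 422 and 357 FPKM in PBS replicates 1 to 5. The lowest and the highest of the 10 glands were both LPS glands. The log2 change of Hspa5 was -0.11 ± 0.20 (95% interval -0.54 to 0.33; limma adjusted p = 0.865), with means of 332 ± 104 FPKM in LPS glands and 351 ± 72.4 FPKM in PBS glands.

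The 3 highest log2 changes of the arm, none of which passed, were those of Calr, Pdia3 and Canx. Calr, a lectin chaperone of glycoproteins, was at 297, 463, 395, 489.8 and 422 FPKM in LPS replicates 1 to 5, against 268, 291, 474, 361 and 402 FPKM in PBS replicates 1 to 5. Its membrane-bound relative Canx was at 54.2, 76.1, 67.8, 79.7 and 69.2 FPKM in LPS replicates 1 to 5, against 53.1, 56.8, 73.6, 59.4 and 61.9 FPKM in PBS replicates 1 to 5. The isomerase Pdia3, which works with both, was at 149, 212, 181, 228 and 178 FPKM in LPS replicates 1 to 5, against 132, 143, 200.4, 177 and 169.6 FPKM in PBS replicates 1 to 5. The groups overlapped in each of the 3 genes, with LPS replicate 1 the lowest LPS gland and PBS replicate 3 the highest PBS gland. The log2 changes were 0.21 ± 0.17 for Calr, 0.18 ± 0.12 for Canx and 0.20 ± 0.14 for Pdia3 (limma adjusted p = 0.612, 0.492 and 0.518), and with FPKM rescaled outside milk proteins -0.00, -0.03 and -0.01.

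Of the remaining chaperones, Sdf2l1, a partner of ER J-proteins, was at 28.4, 35.7, 38.4, 48.5 and 29.0 FPKM in LPS replicates 1 to 5, against 22.3, 42.8, 50.5, 50.1 and 41.2 FPKM in PBS replicates 1 to 5, with overlapping groups (log2 change -0.17 ± 0.21, limma adjusted p = 0.775). Hsp90b1, the ER form of HSP90, was at 67.5 to 150.4 FPKM in LPS glands and 71.7 to 132 FPKM in PBS glands. Hyou1, a nucleotide exchange factor of BiP, was at 18.8 to 37.0 FPKM in LPS glands and 23.1 to 38.1 FPKM in PBS glands. The disulfide isomerases P4hb, Pdia4 and Pdia6 had log2 changes of -0.05, 0.05 and 0.09, each smaller than its SE, as were those of Dnajb11, Creld2, Manf and Herpud1 (0.08, -0.14, -0.09 and 0.03). Herpud1, an ERAD scaffold, spanned 14.99 to 34.5 FPKM in LPS glands and 14.5 to 41.4 FPKM in PBS glands.

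Within each group most genes of the ATF6 arm followed the same order of glands, which the IRE1 arm shared in part. LPS replicate 4 was the highest LPS library for 14 of the 15 genes, against 15.1% of all genes tested, and LPS replicate 1 was the lowest for 12 of the 15, against 32.3% of all genes. Among PBS glands, PBS replicate 1 was the lowest for 12 of the 15, against 30.8% of all genes, and PBS replicate 3 or 4 was the highest for 8 and 5 of them, against 20.9 and 12.9% of all genes. The median deviation of the 15 genes from their group mean was -0.33 and 0.27 on the log2 scale in LPS replicates 1 and 4, and -0.33, 0.28 and 0.16 in PBS replicates 1, 3 and 4. For all genes tested the medians in the same libraries were -0.06 and -0.00, and -0.08, 0.03 and 0.01. In the IRE1 arm LPS replicate 1 and PBS replicate 1 were each the lowest for 7 of the 11 genes. LPS replicate 4 and PBS replicate 3 were each the highest for 5 of the 11. In the PERK arm LPS replicate 1 and PBS replicate 1 were each the lowest for 1 of the 7 genes. These orders are descriptions of single libraries, without a test.

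Of the 9 genes with an ERSE, most of which belong to this arm, LPS replicate 4 was highest for 8, LPS replicate 1 lowest for 6 and PBS replicate 1 lowest for 8. Of the 20 genes with a promoter entry and no ERSE the counts were 10, 11 and 10. Dnajb11, Sdf2l1, Pdia3, Pdia4 and P4hb, ATF6-arm genes with a promoter entry and no ERSE, also peaked among LPS glands in LPS replicate 4. Hspa5 was 2.27 times as high in LPS replicate 4 as in LPS replicate 1, and Hsp90b1 2.23 times, while the group means of both differed by less than their SE. Xbp1 did not follow: LPS replicate 1, the lowest LPS library for Hspa5, was its highest, at 493 FPKM. Herpud1, Syvn1 and Dnajb9 were lowest among LPS glands in LPS replicate 1 as well, but were highest in LPS replicate 2 or 3. Library depth was 18869545 reads in LPS replicate 1 and 15960311 in LPS replicate 4, the deepest and the shallowest LPS libraries. Among PBS libraries it was 18083081 reads in PBS replicate 1, the deepest, 16910825 in PBS replicate 3 and 15734303 in PBS replicate 4, the shallowest. The share of milk protein transcripts was 34.9 and 37.2% in LPS replicates 1 and 4, and 49.9, 38.6 and 46.8% in PBS replicates 1, 3 and 4. The part of depth or milk content in the order was not tested.

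**Figure D4:**
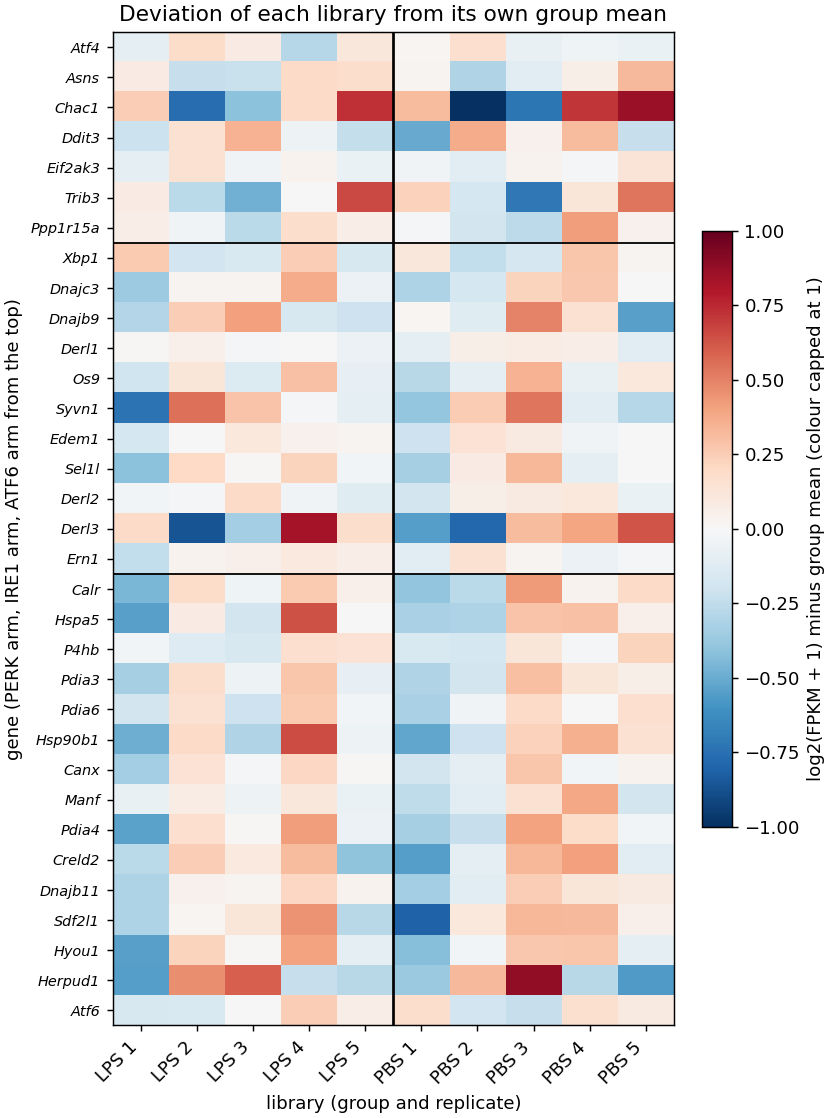
Deviation of each library from the mean of its own group in log2(FPKM + 1), for the 33 genes (rows, by arm) and 10 libraries (columns, LPS left of PBS). Red is above and blue below the group mean, with the colour capped at 1. Most ATF6-arm genes are blue in LPS 1 and PBS 1 and red in LPS 4 and PBS 3, with a median deviation of -0.33 in both replicates 1, while Chac1, Trib3 and Asns follow another order.

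Other genes of the pathway were read from 7 lists, against 2.63% of all genes tested called higher by limma and 0.605% called lower. The other genes of the integrated stress response, mostly ATF4 targets and aminoacyl-tRNA synthetases, had 0 of 37 tested genes higher and 0 lower (median log2 change -0.06). The most abundant of them were Nupr1, a stress-induced chromatin protein, at 174 ± 68.5 FPKM in LPS glands and 231 ± 50.3 FPKM in PBS glands (limma adjusted p = 0.341), and Slc3a2, the heavy chain of amino acid exchangers, at 159 ± 35.9 and 147 ± 28.4 FPKM in LPS and PBS glands (adjusted p = 0.842). Of this list the authors' deposited table lists Eif2ak2 as higher (log2 change 0.57, adjusted p = 0.0179) and Pycr1 as lower (-0.65, adjusted p = 0.0218). By limma their log2 changes were 0.74 and -0.62 (adjusted p = 0.0897 and 0.0834). The translocon and glycosylation list had 0 of 32 genes higher and 0 lower (median -0.09). In it Sec61b, a subunit of the channel, was at 124 ± 26.6 FPKM in LPS glands and 127 ± 17.9 FPKM in PBS glands, and Srpr, the receptor of the signal recognition particle, at 99.1 ± 19.5 FPKM in LPS glands and 136 ± 14.4 FPKM in PBS glands (log2 change -0.47 ± 0.14, limma adjusted p = 0.0841). Srpr passed as lower after scaling to non-milk transcripts (adjusted p = 0.0362), with library weights (0.0404), with the B and T cell covariate (0.0284) and without LPS replicate 1 (0.0475). From the translocon list the authors' deposited table lists Tusc3 as higher (log2 change 0.34, adjusted p = 0.04). Cytosolic heat shock genes, the counterpart of the module outside the ER, had 0 of 20 genes called and a median log2 change of 0.25. Without LPS replicate 1, 1 of the 20 was called higher, in a fit that called 429 of all 11414 genes higher. The authors' deposited table lists Hsp90aa1 as higher (log2 change 0.42, adjusted p = 0.048). The chaperones Hsp90ab1 and Hspa8 were at 626 ± 134 and 371 ± 91.3 FPKM in LPS glands, against 498 ± 88.2 and 311 ± 81.0 FPKM in PBS glands (limma adjusted p = 0.351 and 0.619). The 8 milk protein genes, the main cargo of the ER in this tissue, had 0 called and a median log2 change of -0.32. DESeq2 on recovered reads called 2 of the 8 lower, against 6.4% of all genes it tested called in either direction. The authors' deposited table lists Csn2 (log2 change -0.59, adjusted p = 0.00611) and Csn3 (-0.46, adjusted p = 0.0274). Of the 2 most abundant, the whey acidic protein Wap was at 52845 ± 11248 FPKM in LPS glands and 70887 ± 8919.7 FPKM in PBS glands, and the casein Csn1s1 at 51038 ± 8555 FPKM in LPS glands and 50621 ± 7515 FPKM in PBS glands (limma adjusted p = 0.351 and 0.988).

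Among other ER folding genes 1 of 32 fell and 0 rose (median log2 change 0.01), and among other ERAD genes 1 of 24 fell and 0 rose (median 0.05), against 0.605% of all genes tested that were called lower and 2.63% called higher. Fkbp11, a prolyl isomerase of secretory cells, was at 35.2, 25.1, 25.6, 32.3 and 31.1 FPKM in LPS replicates 1 to 5, against 35.9, 44.1, 41.0, 40.7 and 57.5 FPKM in PBS replicates 1 to 5. The groups did not overlap, but LPS replicate 1 and PBS replicate 1 nearly met. Fkbp11 had a log2 change of -0.53 ± 0.13 (limma adjusted p = 0.0485), and the call was lost without any 1 of the libraries other than LPS replicate 1 (highest adjusted p = 0.138). Selenos, a selenoprotein of the ERAD complex, was at 54.5, 48.5, 59.0, 46.2 and 47.6 FPKM in LPS replicates 1 to 5, against 63.5, 64.4, 65.8, 73.2 and 67.3 FPKM in PBS replicates 1 to 5, without overlap. Its log2 change was -0.38 ± 0.09 (limma adjusted p = 0.0344), and the call was lost without any 1 of the libraries other than LPS replicates 1 and 3 (highest adjusted p = 0.106). Both calls were also lost without the 3 libraries rich in B and T cell transcripts (adjusted p = 0.248 for Fkbp11 and 0.134 for Selenos), where 28 genes in all were called higher and 7 lower in place of 300 and 69, while the log2 changes were -0.50 and -0.41. The authors' deposited table lists Fkbp11 and Selenos as lower (log2 change -0.53 and -0.42, adjusted p = 0.0202 and 0.00239). Of the folding list it also has Ero1lb (-0.48, adjusted p = 0.00377) and Mogs (-0.33, adjusted p = 0.00987) as lower.

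The list of other ER stress regulators and death effectors had 3 of 23 tested genes higher and 0 lower, against 2.63 and 0.605% of all genes tested (median log2 change 0.12). Bak1, a pore-forming BCL-2 family protein, was at 14.9, 24.1, 22.7, 16.5 and 19.4 FPKM in LPS replicates 1 to 5, against 10.6, 10.8, 14.8, 11.1 and 11.2 FPKM in PBS replicates 1 to 5. Casp12, an ER-associated caspase of rodents, was at 15.4, 15.6, 20.6, 16.2 and 13.99 FPKM in LPS replicates 1 to 5, against 9.79, 10.5, 13.6, 11.4 and 9.13 FPKM in PBS replicates 1 to 5. Tnfrsf10b, a death receptor known as a target of CHOP, was at 7.17, 7.49, 6.89, 7.01 and 7.44 FPKM in LPS replicates 1 to 5, against 3.98, 5.10, 5.82, 4.79 and 4.89 FPKM in PBS replicates 1 to 5. In all 3 genes every LPS gland lay above every PBS gland, in Bak1 and Casp12 by a narrow margin. Their log2 changes were 0.68 ± 0.14 for Bak1, 0.55 ± 0.12 for Casp12 and 0.48 ± 0.09 for Tnfrsf10b (limma adjusted p = 0.0197, 0.0308 and 0.0188). On recovered reads edgeR called 3 genes of the list higher and 0 lower, and DESeq2 called 4 higher and 1 lower. Over all genes they tested, edgeR called 3.37% and DESeq2 6.4% in either direction. The authors' deposited table lists the same 3 genes as higher (adjusted p = 0.000402, 0.00117 and 0.00289). It also lists Bax as higher (adjusted p = 0.0449) and Creb3l2 as lower (adjusted p = 0.0306). All 3 limma calls were lost with FPKM rescaled outside milk proteins (adjusted p = 0.0659, 0.0838 and 0.101) and without the 3 libraries rich in B and T cell transcripts (0.199, 0.18 and 0.131). In the smaller set of libraries the log2 changes were 0.57, 0.48 and 0.50. The calls of Bak1 and Tnfrsf10b were lost without LPS replicate 2 or PBS replicate 4, that of Bak1 also without LPS replicate 3 or PBS replicate 1, and that of Casp12 without any 1 library other than LPS replicates 1 and 5 and PBS replicate 3 (highest adjusted p = 0.0592 for Bak1, 0.0567 for Tnfrsf10b and 0.0873 for Casp12). Neutrophil markers moved with the groups: 4 of 6 tested genes of 8 were higher and 0 lower, and their summed level, mostly S100a8 and S100a9, was 7365 to 14190.5 FPKM in LPS glands and 702 to 1869 FPKM in PBS glands, with none of the 8 at 0 in any library. Among epithelial markers 1 of 7 luminal genes, Krt8 (log2 change 0.53, limma adjusted p = 0.0445), and 1 of 5 myoepithelial genes, Krt5 (0.59, adjusted p = 0.0163), were also higher and 0 lower. The luminal list as a whole did not rise with Krt8: its median log2 change was -0.07. Its summed level, which includes milk proteins, was 76930 to 105497 FPKM in LPS glands and 115162 to 147368 FPKM in PBS glands. The median of the myoepithelial list was 0.32. The part of these cell types in the 3 results was not tested.

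**Figure D5:**
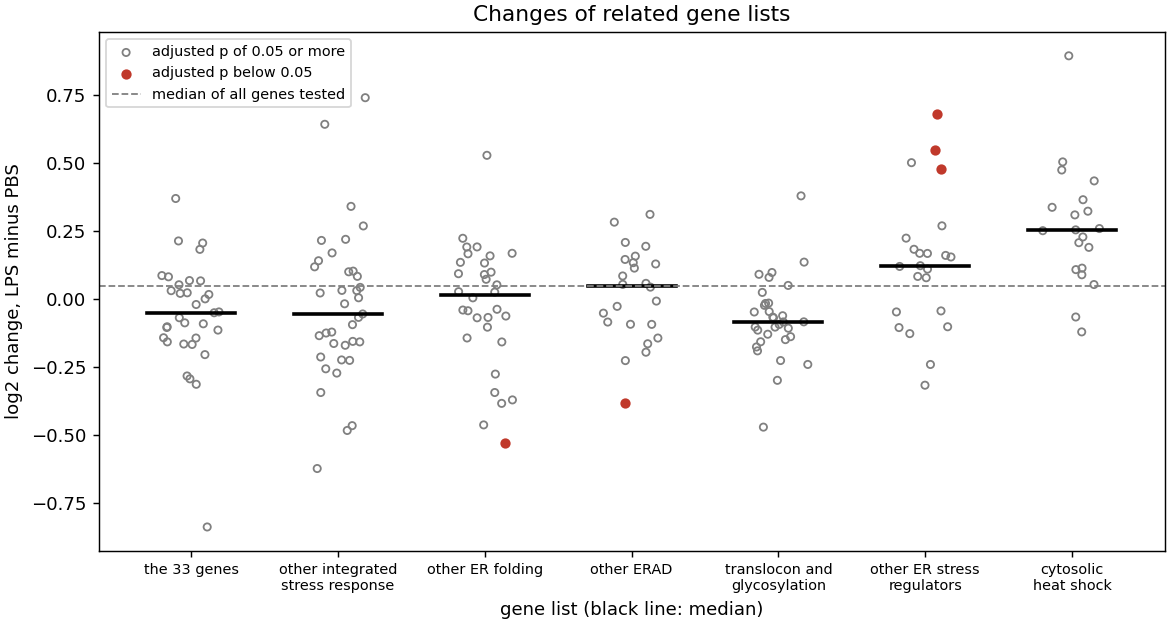
Log2 change, LPS minus PBS, of the 33 genes and of 6 related lists (points, 1 per tested gene; black lines, medians; dashed line, median of all genes tested). Filled points passed the limma test at an adjusted p below 0.05. The 33 genes hold 0 filled points, other ER stress regulators hold 3 above 0, and other ER folding and ERAD genes hold 1 each below 0.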

How the data were processed

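The 10 libraries (5 LPS, 5 PBS) were made from gland RNA. The submitters' processing notes name build mm10, the aligner STAR 2.5, the counter HTSeq 0.6.1 and DESeq2 without a full version; settings and annotation release are not given in the sources used here. The authors deposited FPKM for 35275 genes, 12216 of them at 0 throughout, and a table of genes they compared. Per the file headers that table gives raw read counts, normalized values (a signal: counts over 1 size factor per library), FPKM, gene length, log2 fold changes and p-values, all made by the authors. Each library's depth was taken from counts, lengths and FPKM of the listed genes, and whole reads were recovered for 23059 genes within 0.002 reads; lengths found by this search equalled all but 2 of the listed ones. Counting error and PCR copies cannot be separated.

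Symbols came from Ensembl names, with 4 older list symbols matched through RefSeq synonyms, and coordinates from GENCODE M21 (GRCm38, as mm10). Tests covered genes that reached 1 FPKM in 5 or more libraries and were run with limma 3.58.1 in R 4.3.3 on log2(FPKM + 1), with an intensity trend and group as the only term, two-sided. Such log2 changes understate those of low genes. edgeR 4.0.16 and DESeq2 1.42.0 were run on recovered reads. Every gene of the module passed the filter. The members and lists were chosen with earlier results of these data known. Values per library are given for called members, the 3 sensors, Hspa5, Xbp1, Atf4, Ddit3 and the 8 further members of largest change; from each list up to 4 called genes, or the 2 most abundant, were named. The limma fit with group as the only term was also run on simulated counts.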

Additional observations from a re-analysis of the deposited data

Results flagged for a closer look

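In 3 of 92 groups of 5 libraries checked (46 genes in LPS and in PBS glands), 1 library lay far from the other 4 by Dixon's criterion, which chance alone meets in about 1 of 20 groups. Ern1 was lowest in LPS replicate 1, at 3.94 FPKM, against 5.03 to 5.28 FPKM in the other LPS glands. Bak1 was highest among PBS glands in PBS replicate 3, at 14.8 FPKM. Sec61b was highest among LPS glands in LPS replicate 1, at 171 FPKM. Without LPS replicate 1 the log2 change of Ern1 was 0.08 and that of Sec61b -0.17, neither called by limma.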

How the results depend on the processing

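The counts of 0 of 33 genes higher and 0 lower were recomputed under 24 alternatives. With a B and T cell covariate 1 gene was higher (Ddit3), and 1 was lower (Eif2ak3). 1 gene, Eif2ak3, was also lower with FPKM scaled outside milk proteins and in DESeq2, and 0 were called in edgeR or with any 1 library left out. Same-numbered LPS and PBS libraries correlated in their deviations at 0.482, 0.362, 0.0993, 0.103 and 0.494 for numbers 1 to 5, and 3 of the 5 correlated best with their own number; the labels do not say that the numbers pair glands. With the replicate number as a block 2 genes were lower, Derl3 and Asns (adjusted p = 0.024 and 0.0247), against 10.8% of all genes called, and 0 were higher. Of the related lists the block called 4 of 20 cytosolic heat shock genes higher, and 3 genes higher and 3 lower in the integrated stress response list, with Nupr1 among the lower (adjusted p = 0.0217); Srpr was also lower (adjusted p = 0.00742). Over all genes 300 were higher and 69 lower. Higher and lower genes numbered 101 and 25 with no filter, 128 and 348 scaled outside milk proteins, 962 and 267 with the replicate block, 534 and 122 with library weights, 621 and 116 with the covariate, 28 and 7 without the 3 libraries rich in B and T cell markers, and 607 and 296 in DESeq2. Lower genes were 115 with median-of-ratios scaling, 145 with quantile normalization and 132 in edgeR. Leaving out single libraries gave 121 to 429 higher and 27 to 88 lower, with 123, 164, 129, 121 and 178 higher without LPS replicates 2 and 3 and PBS replicates 1, 4 and 5, and 27, 38, 40, 31 and 29 lower without LPS replicates 2, 3 and 5 and PBS replicates 1 and 4. The cause of these moves was not tested.

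Of 791 values of the 33 genes under alternatives, 708 kept their direction and side of the threshold and 77, in 20 genes, changed sign, none of them called. Log2 changes that changed sign were as follows. Scaled outside milk proteins: Atf4 -0.20, Ern1 -0.16, Herpud1 -0.18, Dnajb11 -0.13, Calr -0.0041, Canx -0.032, Pdia3 -0.011, Pdia4 -0.16, Pdia6 -0.13, Sel1l -0.18, Derl2 -0.14, Ppp1r15a -0.12, Csn1s1 -0.21 and Slc3a2 -0.12. By quantiles: Atf4 -0.091, Ern1 -0.029, Herpud1 -0.080, Dnajb11 -0.034, Pdia4 -0.068, Pdia6 -0.044, Sel1l -0.075, Derl2 -0.012 and Slc3a2 -0.0052. By median of ratios: Atf4 -0.052, Ern1 -0.034, Herpud1 -0.035, Pdia4 -0.016, Sel1l -0.045 and Csn1s1 -0.059. In edgeR: Atf4 -0.036, Ern1 -0.028, Herpud1 -0.065, Pdia4 -0.0061, Sel1l -0.039 and Csn1s1 -0.055. In DESeq2: Atf4 -0.035, Ern1 -0.027, Herpud1 -0.064, Pdia4 -0.0053, Sel1l -0.037 and Csn1s1 -0.054. With the covariate: Syvn1 0.027, Csn1s1 -0.055 and Sec61b 0.0010. With library weights: Syvn1 0.055 and Ppp1r15a -0.018. With a pseudocount of 0.1: Chac1 0.012. Without the 3 libraries: Herpud1 -0.10, Hsp90b1 0.0080, Derl1 0.022, Manf 0.014, Csn1s1 -0.040 and Sec61b 0.079. With single libraries left out the ranges were -0.27 to 0.029 for Hspa5, -0.029 to 0.086 for Atf4, -0.0058 to 0.084 for Ern1, -0.12 to 0.25 for Herpud1, -0.0046 to 0.16 for Dnajb11, -0.18 to 0.0029 for Dnajc3, -0.29 to 0.22 for Chac1, -0.28 to 0.0075 for Hsp90b1, -0.053 to 0.19 for Pdia4, -0.092 to 0.0071 for P4hb, -0.063 to 0.12 for Sel1l, -0.19 to 0.13 for Syvn1, -0.16 to 0.0034 for Manf, -0.00074 to 0.17 for Ppp1r15a, -0.084 to 0.087 for Csn1s1 and -0.17 to 0.032 for Sec61b. The calls of Bak1, Casp12, Tnfrsf10b, Fkbp11 and Selenos were lost in 7, 10, 4, 15 and 11 of the alternatives. At 65 reads, Derl3 in LPS replicate 2 had the least depth behind a value.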
